A study of Mus musculus with 6 samples.

Results

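The genes examined here were the replication-dependent histone genes, chosen as all gene symbols of the deposited table that begin with Hist1h, Hist2h, Hist3h or Hist4h. The rule found 69 of the 24736 genes listed. They were 6 H1, 19 H2A, 19 H2B, 12 H3 and 13 H4 genes, with 55 in cluster Hist1, 10 in Hist2, 3 in Hist3 and 1 in Hist4. RNA sequencing was done on intestinal crypts of 6 male mice aged 12 weeks, 3 wild type (WT) and 3 labelled Mtg16 KO, with 1 library per mouse. Mtg16 (gene symbol Cbfa2t3) encodes a transcriptional co-repressor, and the study asked what its loss does to the crypt. The crypts were released from the full-length gut with cold EDTA, and total RNA was depleted of ribosomal RNA, so that transcripts without a poly(A) tail were kept. The labels call the knockout CRISPR-induced, whereas the methods speak of Mtg16-/- animals given by another laboratory, and the allele was not settled here. The labels state no other allele and no treatment for either group.

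Histones package DNA: H2A, H2B, H3 and H4 form the core of the nucleosome, and H1 binds the linker DNA between nucleosomes. Most of the supply for newly made DNA comes from clustered, intronless genes that are switched on in S phase. Their mRNAs end in a conserved stem-loop in place of a poly(A) tail, which is bound by the stem-loop binding protein SLBP and governs processing, translation and decay. In the gut, S phase takes place mainly in the dividing cells of the crypt.

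The stem-loop was searched in the GENCODE vM21 transcripts (genome build GRCm38), and is shown because it marks this class of mRNA. A stem-loop of 16 bases, with a 6-base stem and a loop of 4 bases, was found after the stop codon in 44 of the 69 genes. The search took only stems that paired in full, opened with GG and closed with CC, around a loop beginning with TT. Other forms would have been missed, and these shared letters were set by the search. Of the 25 others, 17 had no transcript model reaching more than 16 bases past the stop codon. Whether the models of the remaining 8 reached the usual place of the element was not checked. The forms differed between histone types. In the sequences below the stem is in capitals and the loop in lower case, in DNA letters from 5′ to 3′, each named by the genes that carry it.
26 genes of types H1, H2A, H2B and H3, among them Hist3h2a and Hist3h2ba: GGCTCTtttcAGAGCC
6 genes of types H1, H2B and H3, among them Hist1h3e: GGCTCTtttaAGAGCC
1 H2A gene, Hist2h2ac: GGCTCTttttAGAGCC
7 H4 genes, among them Hist1h4d, Hist1h4m, Hist1h4n and Hist4h4: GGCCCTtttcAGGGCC
2 H4 genes, Hist1h4i and Hist2h4: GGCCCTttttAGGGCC
2 H4 genes, Hist1h4b and Hist1h4j: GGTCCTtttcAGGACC
All 11 H4 genes with a stem-loop had one of the last 3 forms, and none of the 33 genes of other types had them. The element began 22 to 59 bases after the stop codon.

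The promoters also differed by type. RefSeq (GRCm38.p6) gave promoters of 300 bases, from 250 before to 50 after the start, for 62 of the genes, and 4 motifs were searched on both strands, none of which contains another. The TATA box TATAAA was in 56.5% of the histone promoters and in 13.6% of all 32851 promoters. CCAAT was in 85.5% of them against 37.4% of all promoters, with a match in each of the 50 promoters of H1, H2A, H2B and H3 genes and in 3 of 12 H4 promoters. The octamer ATTTGCAT was in 7 of 18 H2A and 6 of 16 H2B promoters and in none of the other histone promoters (1.74% of all promoters). GGTCCG, the core of an H4 promoter element, was in 11 of 12 H4 promoters, 1 H2B and 1 H3 promoter (8.25% of all promoters). The 120 bases before the start are shown for the most abundant H4 and H2A genes and for the members whose values stood apart from the rest, with any motif match, on either strand, in capitals.
Hist1h4d, chr13:23581448-23581567, plus strand: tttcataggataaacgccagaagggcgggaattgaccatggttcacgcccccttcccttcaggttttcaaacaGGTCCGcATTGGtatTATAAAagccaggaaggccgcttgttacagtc
Hist1h4n, chr13:21832198-21832317, minus strand: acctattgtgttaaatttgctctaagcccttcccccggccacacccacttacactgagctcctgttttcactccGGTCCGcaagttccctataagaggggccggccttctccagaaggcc
Hist1h4m, chr13:21811626-21811745, plus strand: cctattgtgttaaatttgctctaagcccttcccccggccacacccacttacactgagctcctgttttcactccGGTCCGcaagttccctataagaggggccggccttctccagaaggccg
Hist4h4, chr6:136804432-136804551, minus strand: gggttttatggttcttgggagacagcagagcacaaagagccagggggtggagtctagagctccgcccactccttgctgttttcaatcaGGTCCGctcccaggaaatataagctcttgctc
Hist1h2ap, chr13:21833476-21833595, minus strand: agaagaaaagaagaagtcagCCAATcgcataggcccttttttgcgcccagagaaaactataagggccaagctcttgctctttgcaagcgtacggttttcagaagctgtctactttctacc
Hist3h2a, chr11:58954565-58954684, plus strand: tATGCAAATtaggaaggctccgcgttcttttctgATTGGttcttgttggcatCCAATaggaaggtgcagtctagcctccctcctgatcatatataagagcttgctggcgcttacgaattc
Hist3h2ba, chr11:58948791-58948910, plus strand: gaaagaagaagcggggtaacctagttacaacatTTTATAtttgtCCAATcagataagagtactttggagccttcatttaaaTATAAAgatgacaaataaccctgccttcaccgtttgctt
A motif match describes the letters only, and binding was not measured.

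The genes lie on 4 chromosomes of GRCm38. Cluster Hist1 is on chromosome 13 in blocks of 18 genes (chr13:21715711-21837530), 5 genes (chr13:22035122-22043658), 29 genes (chr13:23531044-23764412) and 2 genes (chr13:23933725-23934913), with the pseudogene Hist1h2al further along. Hist2 spans chr3:96219885-96270192 and Hist3 spans chr11:58948911-58955192. Hist4h4 lies alone at chr6:136803993-136804431. There were 13 divergent pairs of an H2A and an H2B gene, with starts 163 to 280 bases apart. In 12 such pairs both genes were tested, and the H2B gene had the higher mean level in 8 of them.

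Levels are given in TPM, an estimate of transcript abundance that is corrected for gene length and adds up to the same total in every library. Histone transcripts made up 2.95%, 4.31% and 3.80% of all TPM in WT mice 1 to 3, and 3.71%, 3.79% and 5.37% in Mtg16 KO mice 1 to 3. Of the 69 genes, 48 were among the 500 genes of highest mean TPM in the table. A mean of at least 100 TPM was reached by 55 genes and of at least 1000 TPM by 11, and the 10 most abundant held 39.4% of all histone TPM. The levels of single genes thus ranged over several orders of magnitude within 1 cluster.

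Hist1h4d, which encodes H4, was the most abundant member, with 1982, 3117 and 2769 TPM in WT and 2914, 2795 and 3830 TPM in Mtg16 KO. The next H4 genes were Hist1h4c, Hist1h4n and Hist1h4h, with means of 1892, 1776 and 1768 TPM over the 6 libraries. The most abundant linker histone gene was Hist1h1d, with a mean of 1085 TPM, and among core genes of other types Hist1h2ap reached 1283, Hist1h3b 1131 and Hist1h2bn 1125 TPM. At the other end, Hist1h2ba and Hist2h3c1 were listed at 0 in all 6 libraries. Hist2h2aa2 was listed at 0 in 5 libraries and at 5.72 TPM in WT 3. Hist1h1t, Hist1h2aa (both known from the testis) and Hist1h2al had means of 0.892, 0.455 and 0.102 TPM. These 6 genes stayed under a mean of 1 TPM and were not tested, which left 63 genes.

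**Figure D1:**
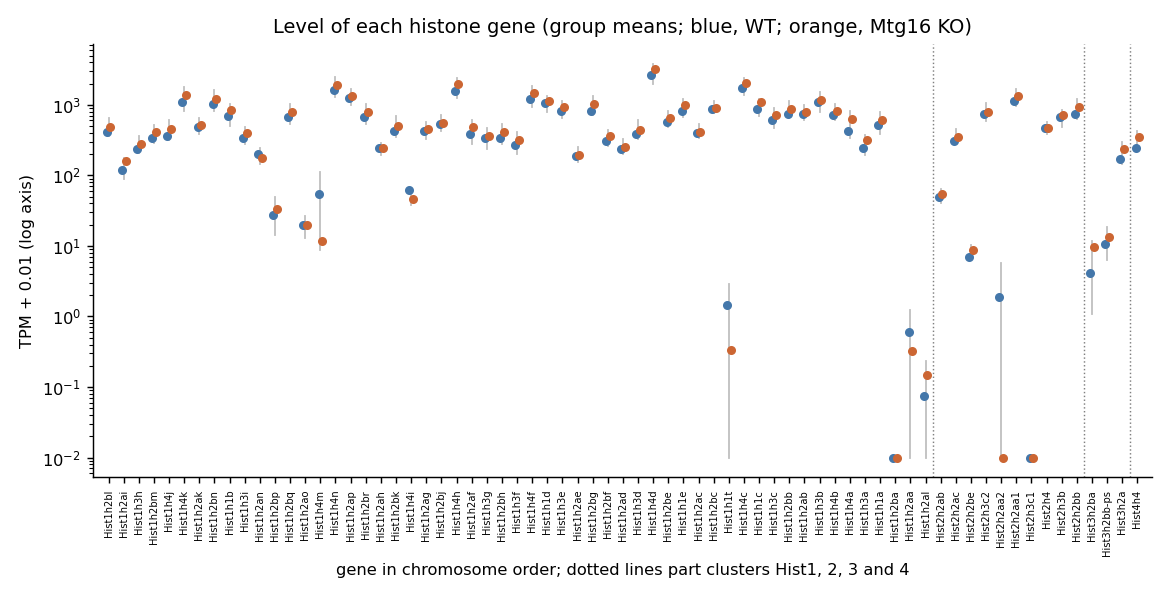
Level of each of the 69 histone genes (TPM plus 0.01, log axis), with genes in chromosome order within cluster. Points are means of 3 WT (blue) and 3 Mtg16 KO (orange) libraries and grey lines run from the lowest to the highest library. The 2 groups sit close together for most genes, and Hist1h4m has the widest gap among the tested genes with the WT mean above.

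Several members were near copies of each other, which bears on how reads could be divided among them. Coding sequences were compared only between members of the same type and equal coding length, which took in 59 genes and no H1 gene. The median identity to the nearest such member was 98.7%. The lowest value, 82.7%, was that of Hist2h2ac and Hist1h2aa, which could be compared only with each other, so a nearer member of another length may exist. For 10 genes an identical coding copy existed, in the pairs Hist1h4m and Hist1h4n, Hist1h2ao and Hist1h2ap, Hist1h2bq and Hist1h2br, Hist2h2aa1 and Hist2h2aa2, and Hist2h3c1 and Hist2h3c2. Levels within these pairs were uneven. Hist2h3c2 had a mean of 773 TPM while Hist2h3c1 was at 0, Hist1h2ap had 1283 against 19.6 TPM for Hist1h2ao, and Hist1h2bq and Hist1h2br had the same value in every library. Single members of these pairs are therefore uncertain, and sums over a histone type are given beside them.

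Summed over all 69 genes, histone RNA was 29527, 43108 and 37979 TPM in WT and 37099, 37883 and 53714 TPM in Mtg16 KO. The means were 36872 ± 6858 and 42898 ± 9375 TPM (SD, n = 3 each). WT 1 was the lowest of the 6 libraries and Mtg16 KO 3 the highest, while WT 2 and WT 3 both lay above Mtg16 KO 1 and Mtg16 KO 2, against the direction of the means. The ratio of the group means was 1.16-fold, or 0.22 on the log2 scale, and this difference was smaller than the spread within either group. The log2 ratio was 0.08 without WT 1 and 0.02 without Mtg16 KO 3. In bulk RNA, a change in the number of dividing cells and a change in histone RNA per cell cannot be told apart.

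All 5 histone types had their lowest sum in WT 1 and their highest in Mtg16 KO 3. H4 genes summed to 9702, 14399 and 12648 TPM in WT and 12764, 13138 and 18307 TPM in Mtg16 KO, with a log2 ratio of means of 0.27. H2B genes summed to 7160, 9990 and 8545 TPM in WT and 8743, 8290 and 12925 TPM in Mtg16 KO (log2 ratio 0.22). In both types the groups overlapped. The log2 ratio was 0.24 for H1, 0.14 for H2A and 0.18 for H3, again with overlapping groups. Without Mtg16 KO 3 the ratios of H2A, H2B and H3 were -0.05, -0.01 and -0.02, and those of H1 and H4 were 0.09 and 0.08.

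**Figure D2:**
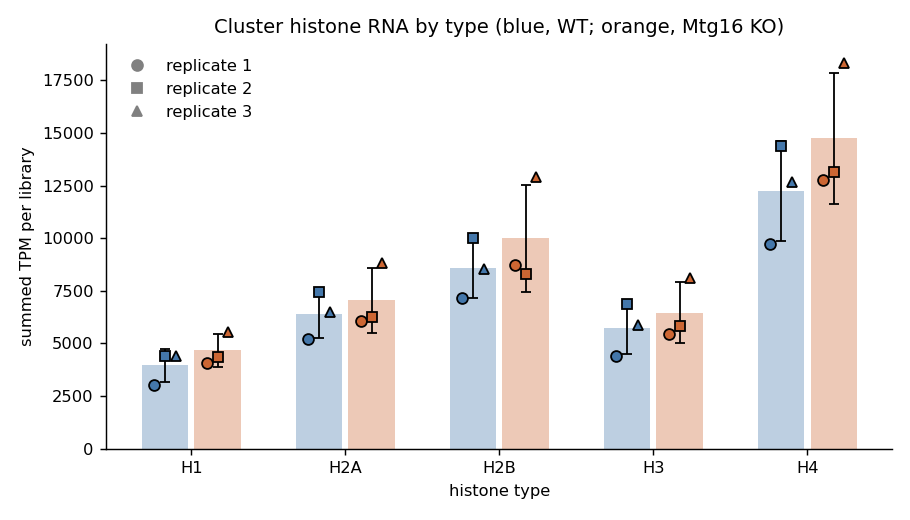
Summed TPM of the H1, H2A, H2B, H3 and H4 genes in each library (vertical axis from 0). Points are libraries, bars are means of 3 WT (blue) or 3 Mtg16 KO (orange) mice and error bars are SD; WT 1 is lowest and Mtg16 KO 3 highest in every type.

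The composition of the pool varied little. H4 took 32.9%, 33.4% and 33.3% of histone TPM in WT and 34.4%, 34.7% and 34.1% in Mtg16 KO, and H2A took 17.6%, 17.3% and 17% against 16.4%, 16.5% and 16.4%. The groups did not overlap in either share, with H4 higher and H2A lower in Mtg16 KO, and these differences were not tested. H2B took 21.9% to 24.3% over the 6 libraries, H3 14.7% to 15.9% and H1 10.2% to 11.6%, all with overlap. Cluster Hist1 held 87.3% to 87.9% and Hist2 10.9% to 11.4%. Hist3 genes took 0.523%, 0.483% and 0.490% of histone TPM in WT and 0.626%, 0.573% and 0.616% in Mtg16 KO, and Hist4h4 took 0.750%, 0.663% and 0.616% against 0.792%, 0.855% and 0.800%. In these small clusters too the shares of the groups did not overlap.

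In a limma fit of log2(TPM + 1) over the 12268 genes with a mean of at least 1 TPM, with Benjamini-Hochberg adjustment and calls at an adjusted p under 0.1, 0 of the 63 histone genes were called. Over all tested genes the share called was 0.0326%. At an unadjusted p under 0.05 there were 5 histone genes, or 7.94%, against 14.6% of all tested genes. The members' adjusted p in limma ran from 0.263 to 0.999. Their log2 fold changes were above 0 in 59 genes and below 0 in 4, with a median of 0.22 beside -0.03 over all tested genes, and standard errors had a median of 0.22. Without WT 1 the median was 0.06 and 43 of 64 tested members were above 0, and without Mtg16 KO 3 it was 0.03 with 39 of 65 above 0.

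The same picture held within types. The median log2 fold change was 0.28 for 5 H1 genes, 0.10 for 16 H2A genes, 0.23 for 18 H2B genes, 0.20 for 11 H3 genes and 0.29 for 13 H4 genes. By cluster it was 0.21 for 51 Hist1 genes, 0.14 for 8 Hist2 genes, 0.48 for 3 Hist3 genes and 0.49 for Hist4h4. Apart from Hist1h4m and Hist3h2ba, every tested member lay between -0.42 and 0.51.

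**Figure D3:**
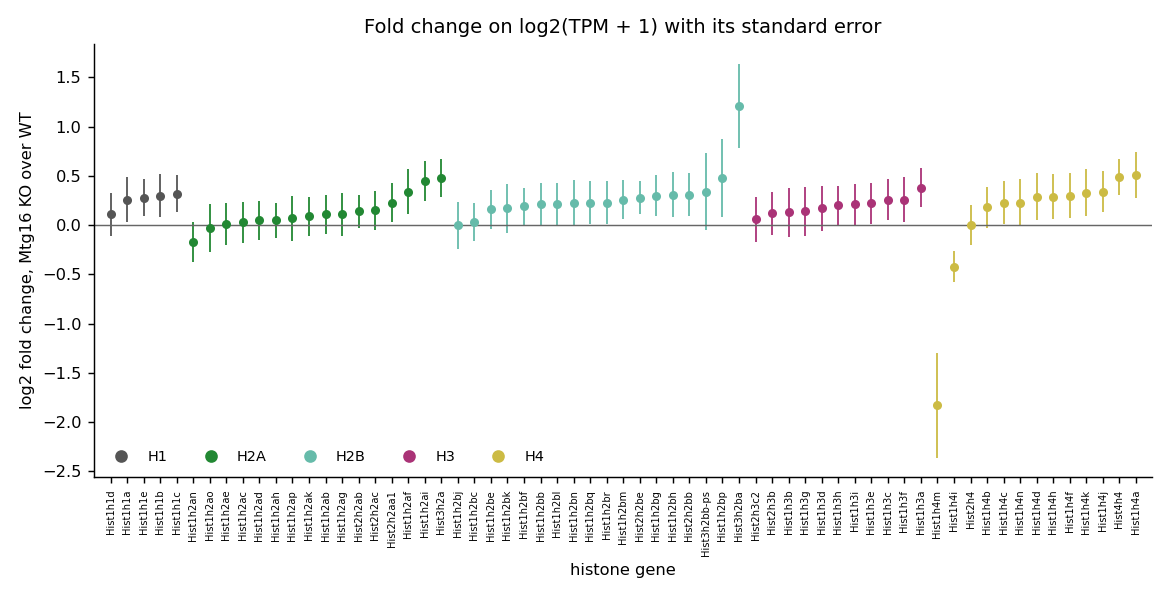
Log2 fold change of Mtg16 KO over WT on log2(TPM + 1) for the 63 tested histone genes, ordered within type, with the limma standard error as bars. Most genes lie a little above 0, Hist1h4m is lowest at -1.83 and Hist3h2ba highest at 1.21.

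The most abundant members of each type showed how alike the genes behaved. Hist1h1c, a somatic linker histone gene, had 687, 962 and 969 TPM in WT and 1005, 1017 and 1221 TPM in Mtg16 KO (log2 fold change 0.32, SE 0.19, limma adjusted p = 0.446). Its groups did not overlap, although the lowest Mtg16 KO value was close to the highest WT value. The other 3 abundant H1 genes, Hist1h1d, Hist1h1e and Hist1h1b, had overlapping groups and log2 fold changes of 0.11, 0.28 and 0.30.

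Among core histone genes, Hist1h2ap had 996, 1472 and 1275 TPM in WT and 1095, 1185 and 1678 TPM in Mtg16 KO. Hist1h2bn had 820, 1191 and 1081 TPM against 1031, 1024 and 1606 TPM. Hist1h3b had 786, 1317 and 1136 TPM against 979, 1033 and 1535 TPM. WT 1 was lowest and Mtg16 KO 3 highest for each of these genes, and of the other 4 libraries both WT values lay above both Mtg16 KO values. Their log2 fold changes were 0.07 (SE 0.23), 0.23 (SE 0.23) and 0.13 (SE 0.25). Of the other abundant genes, Hist2h2aa1, Hist1h2ab and Hist1h2ak (H2A) had log2 fold changes of 0.23, 0.11 and 0.09. Hist1h2bg, Hist1h2bc and Hist2h2bb (H2B) had 0.30, 0.03 and 0.31, and Hist1h3e, Hist2h3c2 and Hist2h3b (H3) had 0.22, 0.06 and 0.12. Hist1h4d, Hist1h4c, Hist1h4n and Hist1h4h (H4) had 0.29, 0.23, 0.23 and 0.29. All of these genes had overlapping groups. The values of Hist1h1d, Hist1h2ap, Hist1h2ab, Hist1h2ak, Hist1h2bc, Hist1h3b and Hist2h3c2 were below 0 without WT 1 and without Mtg16 KO 3, and that of Hist2h3b without WT 1.

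The order of the libraries was shared by most members. WT 1 was the lowest library in 54 of the 63 tested histone genes (85.7%, against 26.4% of all tested genes), and Mtg16 KO 3 was the highest in 57 (90.5%, against 17.9%). The median deviation of the 63 genes from their own means was -0.38 in WT 1, 0.14 in WT 2 and -0.05 in WT 3, and -0.09, -0.09 and 0.44 in Mtg16 KO 1 to 3, on log2(TPM + 1). Mice of different groups thus held the ends of the range, and the distance between WT 1 and WT 2 was larger than the group difference.

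**Figure D4:**
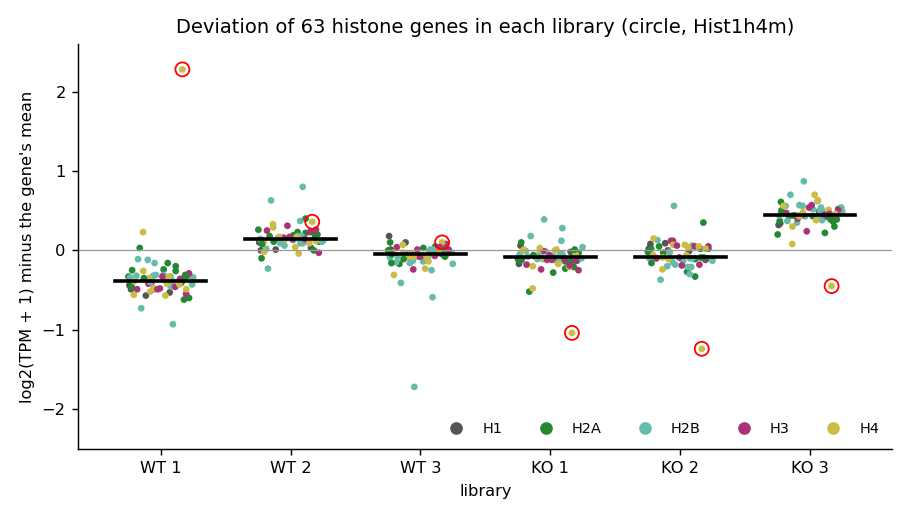
Deviation of each of the 63 tested histone genes from its own mean over the 6 libraries, on log2(TPM + 1), with 1 point per gene coloured by histone type, medians as black bars and Hist1h4m circled. Most genes are lowest in WT 1 (median -0.38) and highest in Mtg16 KO 3 (median 0.44), whereas Hist1h4m is highest in WT 1.

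The sums of 2 lists of cell cycle genes had the same ends of the order. The summed TPM of 32 DNA replication genes, led by Pcna, Mcm6 and Mcm7, was 1309, 1861 and 1835 in WT and 1546, 1882 and 2017 in Mtg16 KO, with the lowest value in WT 1 and the highest in Mtg16 KO 3. Histone TPM was 22.6, 23.2 and 20.7 times this sum in WT and 24.0, 20.1 and 26.6 times in Mtg16 KO, so that the ratio overlapped between groups. The 13 genes of mitosis, led by Ube2c, Cdc20 and Ccna2, summed to 576, 848 and 871 TPM against 807, 863 and 990 TPM. Of these 2 lists 0 genes were called by limma, and 1 of 32 and 1 of 13 had an unadjusted p under 0.05, each higher in Mtg16 KO. Single genes did not all follow the sums. Pcna had 202, 261 and 227 TPM in WT and 217, 240 and 333 TPM in Mtg16 KO. Mcm2 had 40.1, 68.5 and 69.8 TPM against 51.1, 67.3 and 59.6 TPM. The proliferation marker gene Mki67, outside these lists, had 107, 139 and 161 TPM against 116, 161 and 90.3 TPM, with its lowest value in Mtg16 KO 3.

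Markers of other cells differed between the same libraries. The 18 enterocyte markers, led by Reg3g, Apoa1 and Fabp2, summed to 50919, 20329 and 22979 TPM in WT and 19882, 10861 and 11115 TPM in Mtg16 KO, so that WT 1, the library lowest in histone RNA, was the highest in enterocyte RNA. All 18 were tested and had a log2 fold change below 0, with a median of -1.17, 0 called by limma and 12 at an unadjusted p under 0.05. The 10 Paneth cell markers, led by Defa24, Defa17 and Lyz1, summed to 10636, 25465 and 13985 TPM against 40054, 30848 and 30589 TPM, with 10 of 10 above 0, a median of 1.05, 0 called and 8 at an unadjusted p under 0.05. The 10 leukocyte markers, led by Cd74, Gzma and Cd3g, summed to 541 TPM in Mtg16 KO 3 and to 930 to 1737 TPM in the other 5 libraries. Cd74 made up most of this sum in every library. Gzma had 275, 83.2 and 161 TPM in WT and 127, 108 and 43.3 TPM in Mtg16 KO. Cd3g was also highest in WT 1 (43.3 TPM) and lowest in Mtg16 KO 3 (8.16 TPM). This did not hold for all 10, as Cd79a was highest in Mtg16 KO 1 (17.5 TPM). Of the 10 leukocyte markers 1 was above and 9 were below 0, with a median of -0.59, 0 called and 1 at an unadjusted p under 0.05. That gene was Mcpt1, with 12.95, 15.19 and 8.64 TPM in WT and 0.96, 0.65 and 2.77 TPM in Mtg16 KO (log2 fold change -2.49, limma adjusted p = 0.104). The 8 stromal markers, led by Vim, Pecam1 and Col3a1, summed to 11.9 to 19.9 TPM. The 10 crypt and epithelial markers, led by Krt8, Olfm4 and Epcam, summed to 6145, 6143 and 6047 TPM in WT and 6589, 6629 and 6282 TPM in Mtg16 KO, with no overlap. Their median log2 fold change was 0.17, with 6 above 0, 4 below 0 (Krt8, Epcam, Cdh1 and Mki67) and 0 called by limma. At an unadjusted p under 0.05 there were 3, namely the stem cell marker genes Lgr5 and Olfm4 and the crypt gene Slc12a2. Each had every Mtg16 KO value above every WT value. Of the 3 genes leading the sum only Olfm4 had groups apart, with 647, 1035 and 1147 TPM against 1239, 1611 and 1448 TPM. The sum thus does not stand for the 10 genes as a set. Over all tested genes 14.6% had an unadjusted p under 0.05, and 9.94% had every Mtg16 KO value above every WT value. The part of these cell types in the histone values was not tested.

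The targeted gene did not separate the groups. Cbfa2t3 had 3.67, 6.69 and 4.52 TPM in the WT libraries and 4.62, 6.43 and 3.23 TPM in those labelled Mtg16 KO (log2 fold change -0.06, SE 0.27, limma adjusted p = 0.937). Gene-level TPM cannot show a deletion that leaves the transcript in place, so that the genotypes and every direction given here rest on the labels.

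Hist1h4m was the member farthest from the others. This H4 gene (chr13:21811746-21812150) had 112, 28.7 and 23.9 TPM in WT and 10.3, 8.80 and 15.96 TPM in Mtg16 KO. All 3 Mtg16 KO values lay below all WT values, and WT 1, the library lowest in most histone genes, was by far the highest. The log2 fold change was -1.83 (SE 0.53, limma adjusted p = 0.263), and -1.14 without WT 1. It was the only tested histone gene of which every Mtg16 KO value lay below every WT value (1.59% of 63, against 11.1% of all tested genes). A two-sided exact permutation test gave p = 0.1, the smallest that 3 mice against 3 allow. Groups that do not overlap always give this value, so the test adds nothing to the separation.

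The coding sequence of Hist1h4m was the same as that of Hist1h4n (chr13:21831792-21832197) over all 309 bases, while it differed from Hist1h4d at 20. The first 60 coding bases are shown, with differences from Hist1h4m in capitals.
Hist1h4m: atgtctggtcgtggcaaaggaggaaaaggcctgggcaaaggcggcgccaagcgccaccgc
Hist1h4n: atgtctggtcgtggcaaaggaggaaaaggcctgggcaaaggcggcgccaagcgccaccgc
Hist1h4d: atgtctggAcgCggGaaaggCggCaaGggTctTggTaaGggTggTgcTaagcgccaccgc
The likeness went past the coding part. The promoter windows of Hist1h4m and Hist1h4n matched at 298 of 299 bases once shifted by 1 base, whereas the next closest H4 promoter, that of Hist1h4i, matched at 49.5%. Of the stretches of 50 bases in the Hist1h4m transcript, 89.8% also occurred in another histone gene. Summed, Hist1h4m and Hist1h4n had 1400, 1881 and 1770 TPM in WT and 1513, 1805 and 2489 TPM in Mtg16 KO, a log2 ratio of 0.20 with overlapping groups. How the quantification divided reads between the copies was not tested.

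Hist1h4i, another H4 gene, had 62.5, 67.0 and 55.7 TPM in WT and 37.8, 44.9 and 56.2 TPM in Mtg16 KO (log2 fold change -0.42, SE 0.16, limma adjusted p = 0.312). The groups overlapped, since Mtg16 KO 3 lay just above WT 3. Its coding sequence differed from that of Hist1h4m at 10 of 309 bases, and 28.9% of its 50-base stretches occurred in other histone genes. The other 2 members below 0 were the H2A genes Hist1h2an and Hist1h2ao, at -0.17 and -0.03.

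At the other end, genes of the small clusters stood beside genes of Hist1. After Hist3h2ba, the highest log2 fold change was that of the H4 gene Hist1h4a, at 0.51 (SE 0.23, limma adjusted p = 0.362), with 341, 520 and 432 TPM in WT and 507, 531 and 823 TPM in Mtg16 KO and overlapping groups. The H2B gene Hist1h2bp and the H2A gene Hist1h2ai had 0.48 and 0.45, also with overlap. Hist3h2a, an H2A gene, had 143, 184 and 177 TPM in WT and 211, 199 and 301 TPM in Mtg16 KO (log2 fold change 0.48, SE 0.19, limma adjusted p = 0.312). Hist4h4, which encodes H4, had 221, 286 and 234 TPM against 294, 324 and 430 TPM (log2 fold change 0.49, SE 0.18, limma adjusted p = 0.304). In Hist3h2a and Hist4h4 every Mtg16 KO library lay above every WT library. Hist3h2ba, an H2B gene of low level, had 5.17, 6.20 and 1.09 TPM against 8.04, 9.18 and 11.6 TPM, also with no overlap (log2 fold change 1.21, SE 0.43, limma adjusted p = 0.297). Without WT 3 its value was 0.66. Together with Hist1h1c these were the 4 tested histone genes whose groups were apart with Mtg16 KO above (6.35%, against 9.94% of all tested genes). Each gave p = 0.1 in the two-sided exact permutation test. Any gene with groups apart gives this value here, so the test adds nothing to the separation.

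**Figure D5:**
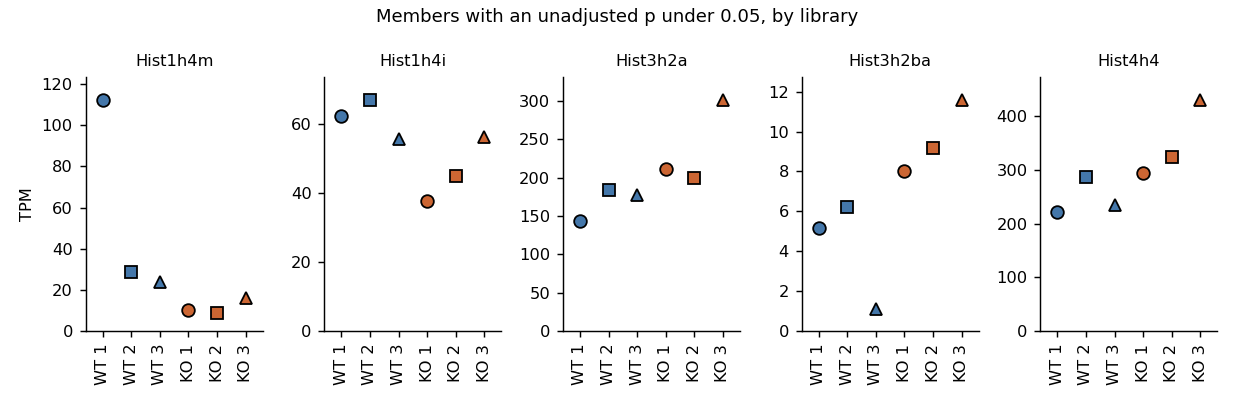
TPM by library (vertical axes from 0, on separate scales) for the 5 histone genes with an unadjusted p under 0.05 in limma; blue, WT; orange, Mtg16 KO. WT and Mtg16 KO libraries do not overlap except for Hist1h4i, and for Hist1h4m WT 1 at 112 TPM stands far above the rest.

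Hist4h4 and Hist3h2a shared few sequences with the rest. No stretch of 50 bases in the Hist4h4 transcript models (0.0%) and 2.0% of those of Hist3h2a occurred in another histone gene, and the coding sequences were 87.1% and 89.7% identical to their nearest copies. For Hist3h2ba these values were 22.1% and 90.7%, and 30.0% of the 50-base stretches of Hist3h2bb-ps were shared. Low sharing was not particular to these clusters, since Hist2h2bb and Hist1h1a also had 0.0%. The third Hist3 gene, Hist3h2bb-ps, named as a pseudogene, had 6.32, 17.8 and 8.15 TPM against 12.8, 8.37 and 18.7 TPM, with overlapping groups (log2 fold change 0.34). Summed, the Hist3 genes had 154, 208 and 186 TPM in WT and 232, 217 and 331 TPM in Mtg16 KO, a log2 ratio of 0.51, which was 0.40 without WT 1 and 0.30 without Mtg16 KO 3. For Hist4h4 the log2 ratio was 0.50, and 0.43 and 0.32 without these libraries.

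Histone genes outside the clusters, most of which encode variants, were set beside the clustered genes. Of 12 such genes 10 were tested, 9 were above 0 and 0 were called, with a median log2 fold change of 0.37. An unadjusted p under 0.05 was found in 4, all higher in Mtg16 KO, against 14.6% of all tested genes in either direction. Groups apart with Mtg16 KO above were found in 9.94% of all tested genes. H3f3a, which encodes the variant H3.3, had 431, 453 and 463 TPM in WT and 529, 554 and 755 TPM in Mtg16 KO (log2 fold change 0.43, SE 0.17, limma adjusted p = 0.312). H3f3b, the other H3.3 gene, had 394, 452 and 461 TPM against 501, 530 and 696 TPM, and both genes had groups that did not overlap. H2afz, which encodes H2A.Z, had 289, 360 and 391 TPM against 325, 443 and 583 TPM, with overlap. Mtg16 KO 3 was the highest library for these 3 genes.

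Genes that make and process histone mRNA or escort histones were split evenly about 0. Of 25 such genes 24 were tested, with 12 above and 12 below 0, a median of 0.01 and 0 called, and 1 had an unadjusted p under 0.05 with Mtg16 KO lower. Slbp, which encodes the stem-loop binding protein, had 55.6, 67.5 and 67.2 TPM in WT and 62.4, 80.0 and 93.6 TPM in Mtg16 KO (log2 fold change 0.29, SE 0.17). Npat, a coactivator of histone genes, had 6.68, 7.32 and 8.21 TPM against 6.50, 10.5 and 8.51 TPM. The most abundant genes of this list were Srrt, Nasp (a histone chaperone) and Upf1 (an RNA helicase of mRNA decay), with log2 fold changes of -0.30, 0.10 and -0.18, and all 5 genes had overlapping groups.

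Structured RNAs without a poly(A) tail were set beside the histone genes. Of 14 such RNAs 9 were listed and 8 tested, led by Rpph1, Rmrp and Scarna13. They summed to 36747, 58310 and 53099 TPM in WT and 45514, 62039 and 52515 TPM in Mtg16 KO, with a median log2 fold change of 0.13, 0 called by limma and 0 at an unadjusted p under 0.05. WT 1 had the lowest sum here too, whereas the highest was that of Mtg16 KO 2. Single RNAs did not share this order. Of the 8 tested, only Rpph1 (18523 TPM in WT 1) and Scarna6 (88.4 TPM) were lowest in WT 1. Rmrp was lowest in Mtg16 KO 1 (17311 TPM) and Scarna13 in Mtg16 KO 3 (571 TPM).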

How the data were processed

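RNA sequencing of crypts from 3 WT and 3 Mtg16 KO mice was analysed from gene-level TPM values, which the authors computed with RSEM and deposited rounded. The submitters' processing notes name cutadapt 1.9.1, STAR 2.5.2a, RSEM 1.3.0, DESeq2 1.12.3 and mm10, with no role or order. The annotation is not given in the sources used here. TPM keeps no read number, so the depth is unknown and no interval or floor was computed. DESeq2 needs counts and was not run.

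Genes averaging 1 TPM or more over the 6 libraries were tested as log2(TPM + 1) with limma 3.58.1 (lmFit, eBayes with intensity trend, R 4.3.3), without covariates. P-values were adjusted by Benjamini-Hochberg over all tested genes and calls were made under 0.1. A fold change on this scale understates the change of low genes. The p-values measure the spread between mice, 1 library each. Single genes also went through an exact permutation test, two-sided (scipy 1.17.1). The calculation was tested on simulated data.

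Symbols were matched to RefSeq GRCm38.p6 through older names, and to GENCODE vM21. Members and lists were chosen with earlier results of these data known. Named genes were the 4 most abundant of each histone type, the 3 largest changes per direction with groups apart, Hist1h4m, Cbfa2t3, Slbp, Npat and the 3 most abundant genes of each list. Hist1h4m was named because the study lists it, and the limit of 0.1 is that of the study's own list. As the study used these same mice, the values of Hist1h4m are no separate support for that listing. Any other gene was named after its values were seen. Alternatives changed the pseudocount, filter, scaling, trend, threshold, replicate block and libraries used.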

Additional observations from a re-analysis of the deposited data

How the results depend on the processing

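Of all tested genes 4 were called, and 0 without a filter on low values, 15 at a mean TPM of at least 5, 1 after median-ratio rescaling, 1 after quantile normalization, 0 without the intensity trend and 0 at an adjusted p under 0.05. Leaving out 1 library gave 0 (without Mtg16 KO 3) to 40 (without WT 1). The cause was not tested. The number of histone genes called was 0 in every alternative but the replicate block. With the replicate number as a block, 1201 genes were called (9.79% of all tested genes, 385 higher and 816 lower). Among them were 3 of the 63 histone genes, Hist1h2ai, Hist1h4m (-1.83) and Hist3h2a (0.48), a smaller share than over all tested genes. Deviations of same-numbered libraries correlated at 0.429, 0.0753 and 0.237, and those of differently numbered libraries at -0.331 to 0.198. Each Mtg16 KO library correlated best with the WT library of its own number, whereas WT 2 correlated best with Mtg16 KO 3 (0.198). The labels name no pairs, so the main fit used none. Whether the numbers mark pairs is unknown, and the calls depend on it.

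With 1 library left out, log2 fold changes ran from -0.08 to 0.23 for Hist1h1d, -0.06 to 0.23 for Hist1h2ab, -0.07 to 0.19 for Hist1h2ak, -0.11 to 0.20 for Hist1h2ap (and -0.03 after quantile normalization), -0.14 to 0.14 for Hist1h2bc, -0.08 to 0.29 for Hist1h3b, -0.10 to 0.30 for Hist2h3b, -0.15 to 0.19 for Hist2h3c2 and -0.26 to 0.15 for Cbfa2t3. TPM keeps no read number, so how far counting error limits members of low level such as Hist3h2ba is unknown.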
